A study of Mus musculus with 12 samples.

Results

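The SOCS family holds 8 genes in the mouse, Socs1 to Socs7 and Cish, and each of them was found by its Ensembl identifier among the 54232 gene rows of the deposited raw count table. RNA of B16F10, a mouse melanoma cell line from C57BL/6, was sequenced in 12 libraries that fall into 4 groups of 3. The groups are used here to follow the levels of these 8 genes through granule exposure and tumor relapse. WT libraries came from untreated cultured cells. The relapsed lines (ITF1, Rel and ITM) are 3 separate lines, each grown to confluency from cells that were sorted out of a tumor that came back after immunotherapy. Tumor libraries (Tumor 1, Tumor 3 and Tumor 4) came from cells that were sorted from such tumors and lysed at once. By the study's results text, tumor cells were sorted within days of immunotherapy, earlier than the time it gives for recurrence. Its methods text calls the tumors relapsed. The tumors had been injected under the skin of mice, 6 weeks of age by the sample labels and 8 to 12 weeks by the methods text. Lyso libraries came from cultured B16F10 cells kept with lysosomal granules of T cells, for 48 hours by the sample labels and for 4 hours by the methods text. All groups share the B16F10 background, with no gene deletion, and which immunotherapy each tumor received is not given in the sources used here.

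SOCS proteins are intracellular brakes on cytokine signaling. A cytokine brings its receptors together, the attached JAK kinases phosphorylate STAT proteins, and the STATs enter the nucleus and switch on target genes, among them SOCS genes whose products return to the receptor and block it. Each SOCS protein carries an SH2 domain that binds phosphorylated tyrosines and a SOCS box that recruits Elongin B, Elongin C and Cullin 5, a ubiquitin ligase that marks the bound protein for destruction. SOCS1 and SOCS3 also inhibit JAK kinases directly. SOCS1 is best known for limiting interferon signals, SOCS3 for limiting IL-6 family signals through gp130, and CIS (the product of Cish) and SOCS2 for limiting signals that run through STAT5, such as those of IL-2 and growth hormone. SOCS4 to SOCS7 are less tied to cytokines and act on receptor tyrosine kinases and insulin signaling.

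STATs bind DNA at short motifs, and 3 stretches are shown because they belong to inducible members and hold such motifs. The gene start regions were taken from RefSeq (build GRCm38.p6), as windows of 250 bases before and 50 bases after the start site. Those of Socs1, Socs3, Socs4 and Cish were searched. Socs6 was left out of the search, and Socs2, Socs5 and Socs7 had no window in the source used. Capitals mark each match to the GAS motif TTCNNNGAA, a STAT element, or to GAAANNGAAA, the core of the interferon-stimulated response element (ISRE), searched on both strands. Each stretch is written 5′ to 3′ on the strand of its gene.
Socs1, minus strand, chr16:10785537-10785786: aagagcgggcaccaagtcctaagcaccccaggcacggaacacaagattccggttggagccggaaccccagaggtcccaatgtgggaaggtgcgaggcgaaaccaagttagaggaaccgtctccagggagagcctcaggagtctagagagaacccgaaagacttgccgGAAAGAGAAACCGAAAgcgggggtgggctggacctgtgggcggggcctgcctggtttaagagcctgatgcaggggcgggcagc
Socs3, minus strand, chr11:117969452-117969616: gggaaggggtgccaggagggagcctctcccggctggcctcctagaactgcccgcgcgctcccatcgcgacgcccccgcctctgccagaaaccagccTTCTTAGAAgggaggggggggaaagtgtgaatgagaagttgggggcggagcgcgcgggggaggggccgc
Cish, plus strand, chr9:107296654-107296683: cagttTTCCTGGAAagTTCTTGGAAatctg
The Socs1 stretch ends at the start site, and its 2 ISRE matches overlap by 4 bases. The Socs3 match begins at base -154, counted back from the RefSeq start site, and the stretch lies outside exons but inside the longer GENCODE M21 gene model, whose 5′ end is at 117970047. The Cish matches begin at bases 1 and 12 of the transcript that RefSeq lists, inside an exon of a gene model that also starts further upstream in GENCODE M21. Socs4, which was not called in any of the 6 comparisons made, held no match to either motif in its window. It was the only member outside the inducible ones that was searched, so no contrast with them can be drawn. Of all 32851 windows of 300 bases in the same table, 8.30% held at least 1 GAS match, 0.457% held 2 or more, 3.44% held an ISRE match and 0.225% held 2 or more. A match describes letters in a window and was not tested as a site of binding.

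**Figure D1:**
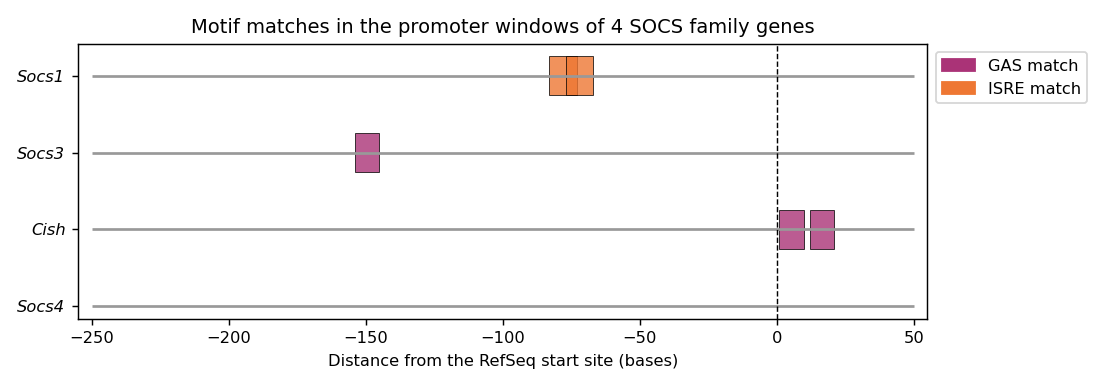
Positions of motif matches in the start regions of Socs1, Socs3, Cish and Socs4, with the distance from the RefSeq start site in bases on the horizontal axis and 1 line per gene. Boxes mark matches on either strand: 2 overlapping ISRE matches in Socs1, 1 GAS match in Socs3, 2 GAS matches in Cish and none in Socs4.

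Depth was uneven, which matters for the low members. Counts on genes were 1667398 in WT 1 and 2350129 in WT 2 but 16384021 in WT 3, with 12749399 to 16402629 in the relapsed lines, from 10895611 to 12675277 in Lyso and from 3102442 to 5049496 in Tumor. Levels are in CPM, the counts divided by the effective (TMM) library size in megareads. A library with 3 or fewer counts of a gene was taken not to detect it, a floor of 1.70 CPM for WT 1, 1.27 for WT 2 and 0.177 for WT 3 that covers counting error alone. The melanocyte marker genes Dct, Tyr, Tyrp1, Pmel and 7 others were all above the floor in every library, with a summed level from 19854 to 38379 CPM, so each library carried the pigment cell transcripts of its label. Marker genes of other cells also appeared in Lyso and Tumor, and their values are given beside the results they accompany. All 8 members passed the filter on low counts, among 14924 genes tested, and calls were made at an adjusted p under 0.05 (edgeR's quasi-likelihood test, Benjamini-Hochberg). Since the labels do not say that the 3 samples of a group came from separate cultures or animals, these p-values measure the spread between the samples sequenced. A permutation test of 3 against 3 libraries cannot go below 0.1.

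In untreated cells the family was carried by the members that are less tied to cytokines. Per kilobase of exon, Socs7 had the highest mean level in WT (5.77 ± 1.05 CPM per kilobase, SD, n = 3), followed by Socs4 (5.03 ± 1.79) and Socs5 (4.77 ± 0.739), and these neighbours differed by less than their spread. Socs3 came next at 2.76 ± 0.739 CPM per kilobase, and Socs6 stood at 1.96 ± 0.187. Socs1 (0.894 ± 0.797), Socs2 (0.366 ± 0.178) and Cish (0.261 ± 0.0621) were at the bottom and overlapped one another. The length is that of all annotated exons of a gene joined, and part of the order depends on it. In CPM, Socs6 (22.3) was above Socs3 (7.99) and Socs2 (3.49) above Socs1 (2.60) in WT, while Socs7, Socs4 and Socs5 still led. Socs7, Socs4 and Socs5 together were the main part of the family in WT, with 26.4%, 22.7% and 21.9% of its summed level per length.

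Summed over the 8 members, the level per length was highest in Lyso and next highest in Tumor. It was 25.3, 17.8 and 22.3 CPM per kilobase in WT 1, WT 2 and WT 3. It was 22.5, 24.5 and 20.1 in ITF1, Rel and ITM. It reached 84.0, 88.8 and 88.1 in the 3 Lyso libraries and 41.0, 53.9 and 65.4 in Tumor 1, Tumor 3 and Tumor 4. Every Lyso library lay above every Tumor library, and every Tumor library lay above all WT libraries and relapsed lines. The makeup differed too. Socs3 took 42.3% ± 0.859 of the summed level in Lyso and 61.6% ± 6.22 in Tumor, against 12.5% ± 1.23 in WT. Socs1 took 34.8% ± 0.512 in Lyso but 5.69% ± 2.99 in Tumor and 4.25% ± 3.56 in WT.

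**Figure D2:**
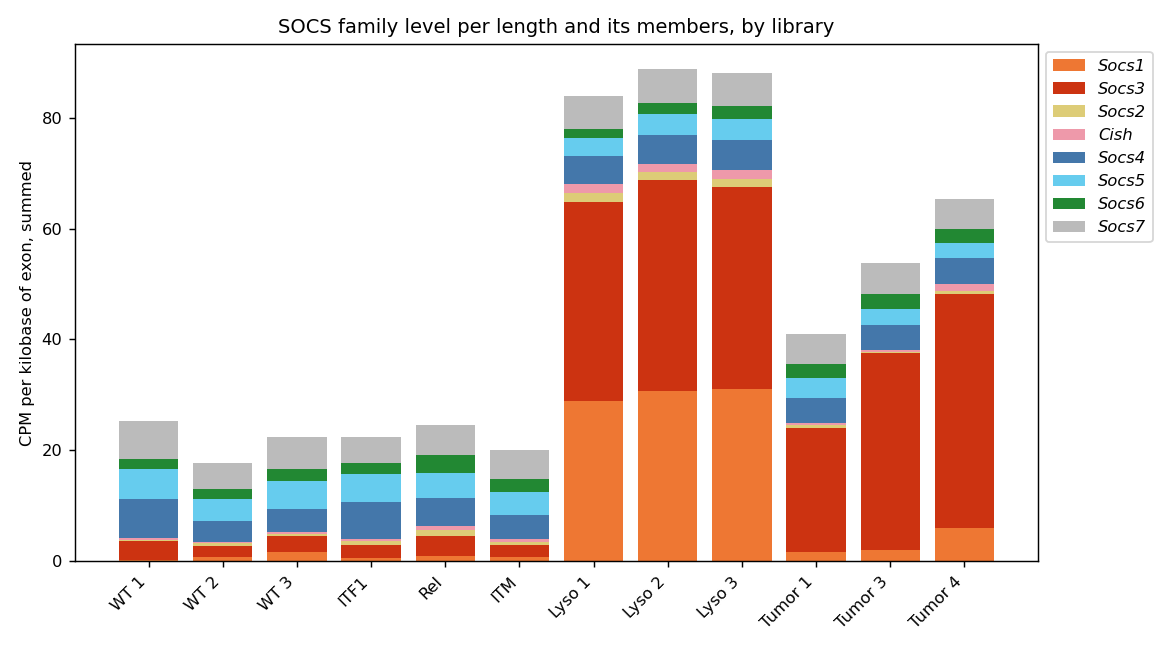
Summed level of the SOCS family in each library, in CPM per kilobase of exon, with 1 bar per library and 1 colored segment per gene. WT and relapsed lines reach 17.8 to 25.3, built mostly of Socs4, Socs5 and Socs7, whereas Lyso reaches 84.0 to 88.8 through Socs1 and Socs3 and Tumor reaches 41.0 to 65.4 mostly through Socs3.

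The comparison of Lyso with WT asks how cells that met T cell granules differ from untreated ones. Of the 8 members, 4 rose in Lyso (Socs1, Socs3, Cish and Socs2) and 0 fell, while 3.5% of all genes tested were called higher and 1.21% lower. The median log2 difference over the 8 members was 1.01, against 0.00 over all genes tested. Lyso and WT libraries did not overlap in 27.4% of all genes tested. The 4 that rose are those best known as cytokine-inducible, and Socs4, Socs5, Socs6 and Socs7 were not called.

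Socs1 (ENSMUSG00000038037, chromosome 16 of GRCm38, 10782240 to 10785536, minus strand) encodes the interferon-limiting member. Its level was 0.565, 2.11 and 5.12 CPM in WT 1, WT 2 and WT 3, from 1, 5 and 87 counts, and 83.9, 89.5 and 90.6 CPM in Lyso 1, Lyso 2 and Lyso 3. The Lyso libraries lay close together and far above WT, and the deepest WT library was the highest of its group. The fold difference was 23.6 (log2 4.56, SE 0.46, adjusted p = 0.000212). Without WT 3 the log2 difference was 5.93.

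Socs3 (ENSMUSG00000053113, chromosome 11, 117966079 to 117970047, minus strand), the brake on gp130 receptors, was the most abundant inducible member. It was at 10.2, 5.90 and 7.89 CPM in WT and at 104.1, 109.8 and 105.3 CPM in Lyso. All Lyso libraries were about alike and none came near the WT range. The difference was 13.5-fold (log2 3.76, SE 0.27, adjusted p = 2.5e-05).

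Cish (ENSMUSG00000032578, chromosome 9, 107296026 to 107302784, plus strand) encodes CIS, and 740 of its 6419 exonic bases lie opposite the genes Gm17040 and Gm17041. The strand setting of the counting is not given in the sources used here, so reads of those genes cannot be told apart from reads of Cish there. It had 3, 3 and 35 counts in WT, that is 1.70, 1.27 and 2.06 CPM, the first 2 at the floor. In Lyso it stood at 10.7, 9.58 and 10.2 CPM, above every WT library. The difference was 5.51-fold (log2 2.46, SE 0.49, adjusted p = 0.0116). The call was lost without WT 3 (log2 2.80, adjusted p = 0.0594) and with WT 3 as the only control (log2 2.28, adjusted p = 0.109).

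Socs2 (ENSMUSG00000020027, chromosome 10, 95385362 to 95417180, minus strand), which restrains growth hormone signals, had a smaller rise. It was at 1.70, 5.06 and 3.71 CPM in WT, the first from 3 counts, and at 15.1, 13.6 and 13.5 CPM in Lyso. The groups did not overlap. The difference was 3.85-fold (log2 1.94, SE 0.34, adjusted p = 0.00612).

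**Figure D3:**
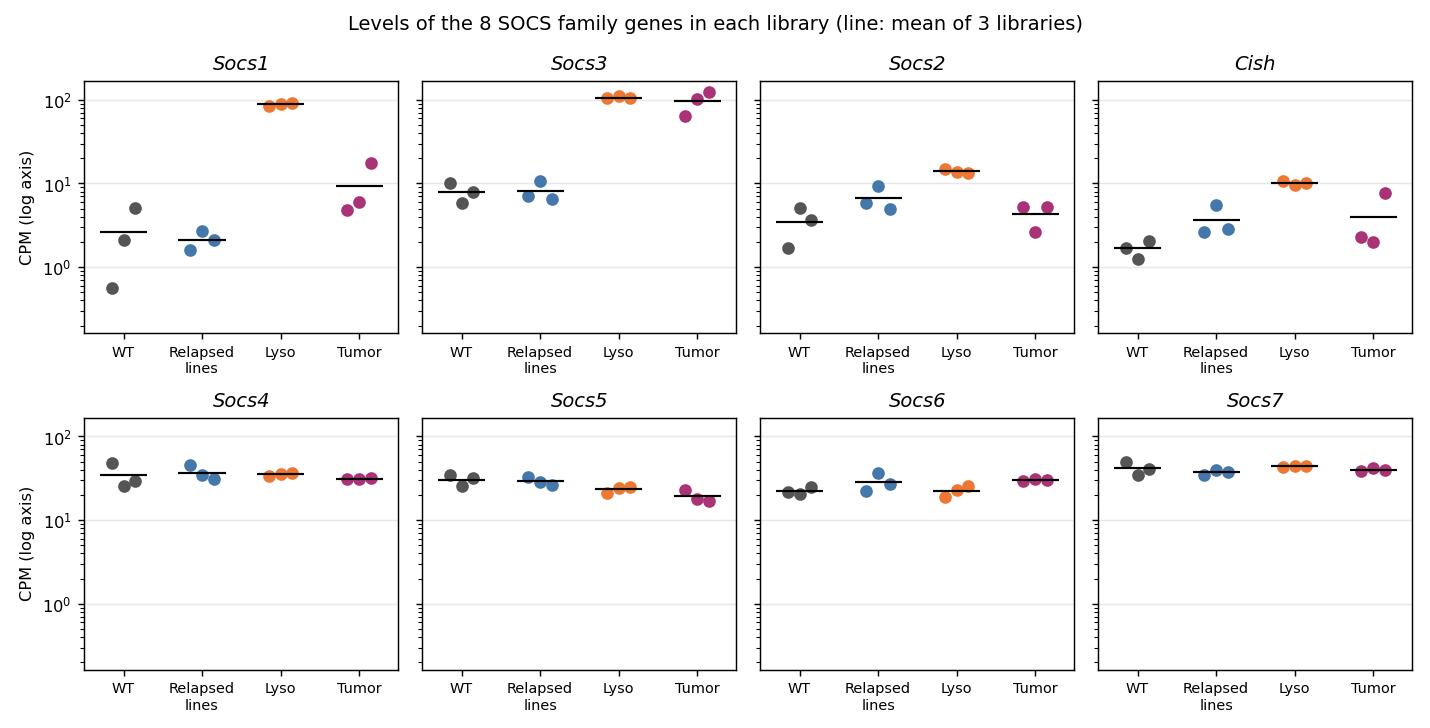
Level of each SOCS family gene in every library, in CPM on a log axis shared by the 8 panels, with 1 point per library and a line at the mean of the 3 libraries in each group. Socs1, Socs3, Socs2 and Cish have their highest mean in Lyso, Socs3 is also high in Tumor at 64.6 to 122.2 CPM, and Socs4, Socs5, Socs6 and Socs7 stay between 17.2 and 49.7 CPM in all libraries.

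The other members were steadier. Socs4 (ENSMUSG00000048379, chromosome 14, 47276931 to 47296102), linked to epidermal growth factor receptor turnover, averaged 34.6 ± 12.3 CPM in WT and 35.4 ± 1.55 in Lyso, with a 95% interval of the log2 difference from -0.37 to 0.52. Socs7 (ENSMUSG00000038485, chromosome 11, 97362551 to 97398542), linked to insulin signaling, averaged 41.9 ± 7.60 and 44.1 ± 0.670 CPM, with an interval from -0.19 to 0.35. Socs6 (ENSMUSG00000056153, chromosome 18, 88665224 to 88927481), a partner of the KIT receptor among others, averaged 22.3 ± 2.12 and 22.6 ± 3.48 CPM, with an interval from -0.41 to 0.40. Socs5 (ENSMUSG00000037104, chromosome 17, 87107679 to 87137839), another regulator of the epidermal growth factor receptor, was at 34.5, 25.3 and 32.0 CPM in WT and at 21.4, 24.5 and 24.8 CPM in Lyso. Its libraries did not overlap between the groups, as in 27.4% of all genes tested. The log2 difference of -0.38 (SE 0.16) did not pass (adjusted p = 0.231).

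T cell transcripts were present in Lyso beside this result. The 12 T cell markers summed to 15.8 to 18.1 CPM in Lyso and to 1.27 to 6.78 CPM in WT, and 3 of the 4 that could be tested rose, namely Gzmb, Cd8a and Cd8b1. Gzmb was at 0 counts in all WT libraries and at 5.09 to 6.70 CPM in Lyso, and Ptprc, the CD45 gene of all leukocytes, was at 2.18 to 3.63 CPM in Lyso. The part of these transcripts in the levels of Socs1, Socs3, Cish and Socs2, and of the pathway genes counted below for Lyso, was not tested. Whether fewer cells of a type or less RNA per cell lies behind a lower level cannot be told apart in bulk libraries.

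The genes around the family moved with it in part. Among JAK kinases and STATs, 4 of 10 tested rose in Lyso and 0 fell, namely Stat3, Stat2, Jak2 and Jak3. Stat3, which drives Socs3 downstream of gp130, was at 46.9, 52.3 and 62.0 CPM in WT and at 553.0, 554.5 and 552.3 CPM in Lyso (log2 3.35, SE 0.18, adjusted p = 2.61e-06). Jak2 rose by 0.64 on the log2 scale (SE 0.14, adjusted p = 0.0178). Of 24 interferon target genes, 15 rose and 0 fell, led by Irf1, Cxcl10 and Irf8. Irf1, a transcription factor induced by interferon, went from 10.1 ± 6.91 to 719.6 ± 54.8 CPM (log2 5.89, SE 0.57, adjusted p = 0.000193). Of 24 STAT3 target genes tested, 6 rose and 0 fell, with Stat3 itself, Tnfrsf1a and Junb in the lead. Of 9 STAT5 target genes tested, 4 rose, and 2 of these are Socs2 and Cish themselves, beside Bcl6 and Pim1.

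Receptors, ligands, other inhibitors and SOCS box partners were counted in the same way. Of 23 cytokine receptor genes tested, 3 rose (Osmr, Ifnar2 and Il2rb) and 0 fell. Il2rb was at 3.29, 2.14 and 2.59 CPM in Lyso 1, Lyso 2 and Lyso 3, near the level of the leukocyte gene Ptprc there. Osmr, the oncostatin M receptor that pairs with gp130, was at 16.8 ± 0.831 CPM in Lyso and 6.20 ± 1.14 in WT (log2 1.45, adjusted p = 0.00745). Il6st, which encodes gp130, averaged 70.5 CPM in Lyso, against 59.0 in WT, and was not called (adjusted p = 0.431). Of 9 ligand genes tested, 0 rose and 1 fell, Tslp. Of 14 other inhibitors of JAK and STAT signaling tested, Ptprc alone rose, the leukocyte gene given above with the T cell transcripts. The list of ligase partners held 7 genes (Elob, Eloc, Eloa, Cul2, Cul5, Rbx1 and Rnf7). Elob, Eloc and Cul5 encode the SOCS box partners named above, and the list is wider than these. Of the 7, 0 were called by edgeR or DESeq2, with 1 of them, Rnf7, at an unadjusted p under 0.05. Of 21 other genes tested that were listed with the SOCS box genes, Spsb1 alone rose. Spsb1, which targets inducible nitric oxide synthase, went from 10.3 ± 7.39 to 38.6 ± 1.75 CPM (log2 1.68, SE 0.37, adjusted p = 0.0209).

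The comparison of Tumor with WT asks what sorted cells of relapsed tumors carry that cultured cells do not. Here 1 of the 8 members rose, Socs3, and 1 fell, Socs5, while 12.1% of all genes tested were called higher and 6.94% lower. The median log2 difference over the 8 members was 0.32, against 0.00 over all genes tested. Tumor and WT libraries did not overlap in 36.1% of all genes tested. With more genes called in this comparison, 2 of 8 is not far from the background share.

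Socs3 was at 64.6, 102.5 and 122.2 CPM in Tumor 1, Tumor 3 and Tumor 4, from 199, 510 and 520 counts. All of these exceed the highest WT library, which was at 10.2 CPM. The difference was 12.3-fold (log2 3.62, SE 0.27, adjusted p = 2.05e-06), and it was called in all alternatives run. Socs5 was at 23.0, 17.9 and 17.2 CPM in Tumor, below the lowest WT library at 25.3 CPM. It fell by 0.67 on the log2 scale (SE 0.17, adjusted p = 0.0151). This call was lost without WT 3 (log2 -0.62, adjusted p = 0.0695), without Tumor 3 (log2 -0.62, adjusted p = 0.066) or without Tumor 4 (log2 -0.59, adjusted p = 0.0678).

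Socs1 and Cish were uneven among the tumors. Socs1 was at 4.87, 6.03 and 17.4 CPM, with Tumor 3 slightly and Tumor 4 well above the highest WT library, at 5.12 CPM. Its log2 difference of 1.36 (SE 0.49, 95% interval from 0.29 to 2.43) did not pass (adjusted p = 0.0737). Leaving out 1 library moved it from 0.57 without Tumor 4 (adjusted p = 0.434) to 2.72 without WT 3 (adjusted p = 0.0363). It also passed without Tumor 1 (log2 1.64, adjusted p = 0.0483), with no filter on low counts (adjusted p = 0.00106) and in DESeq2 (adjusted p = 0.0206). Cish was at 2.27, 2.01 and 7.75 CPM, again with Tumor 4 apart, and its log2 difference of 1.14 (SE 0.54) did not pass (adjusted p = 0.165). Without Tumor 4 it was 0.21 (adjusted p = 0.892). Socs2 was at 5.19, 2.61 and 5.17 CPM, within the WT range but for a slight excess in Tumor 1 and Tumor 4, and its interval ran from -0.62 to 1.06. Socs6 was at 29.5, 30.7 and 30.1 CPM, above every WT library, with a log2 difference of 0.42 (SE 0.19) that did not pass (adjusted p = 0.159). Socs4 averaged 31.4 ± 0.466 CPM and Socs7 averaged 40.0 ± 1.40 CPM in Tumor, and both overlapped WT.

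**Figure D4:**
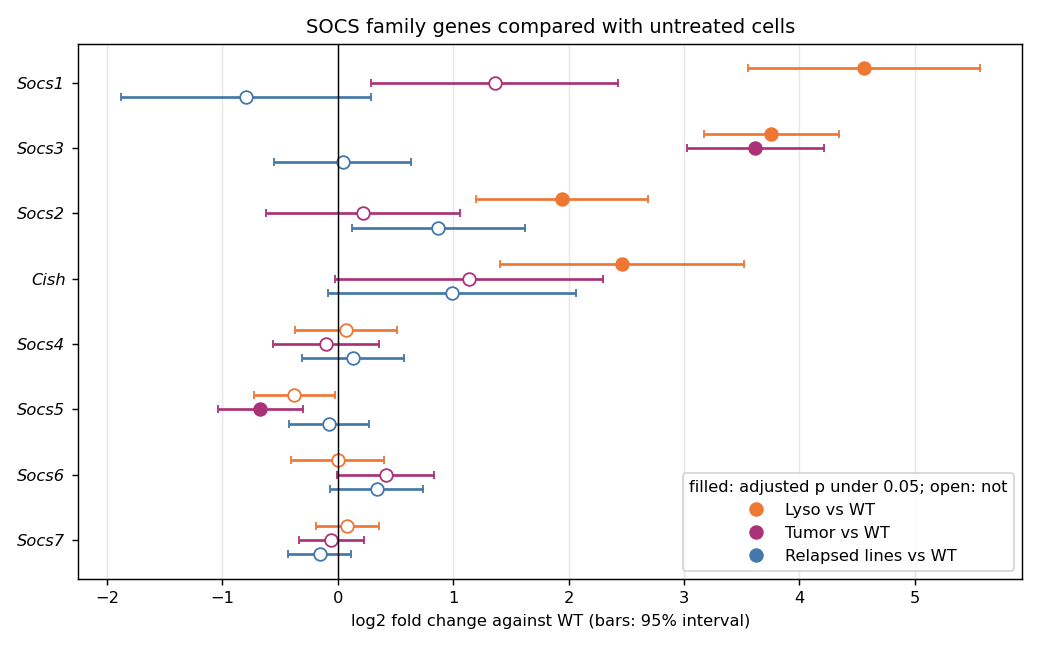
Log2 fold change of each SOCS family gene against WT in Lyso, Tumor and the relapsed lines, with bars for the 95% interval and filled points where the adjusted p was under 0.05. Socs3 has nearly the same value in Lyso (3.76) and Tumor (3.62), Socs1, Socs2 and Cish are filled in Lyso alone, Socs5 is filled in Tumor alone, and no point of the relapsed lines is filled.

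Transcripts of other cells were present in the sorted tumor cells beside these results. The 12 fibroblast markers summed to 9022 to 12376 CPM in Tumor and to 88.8 to 206.2 CPM in WT, and all 12 rose. Myeloid markers summed to 47.1 to 74.7 CPM against 12.4 to 29.2 CPM in WT, with 6 of 7 tested called higher. The summed endothelial markers overlapped (278.3 to 324.7 against 290.6 to 427.4 CPM), although 6 of 7 tested rose, and T cell markers summed to 3.82 to 9.87 CPM with 0 of 4 tested called by edgeR or DESeq2 and 2 at an unadjusted p under 0.05. The part of these transcripts in the Socs3 level of Tumor, and in the levels of the other genes counted below for Tumor, was not tested. In Tumor 1, Tumor 3 and Tumor 4, in the order in which Socs3 was 64.6, 102.5 and 122.2 CPM, the fibroblast sum was 12376, 10147 and 9022 CPM, the myeloid sum 47.1, 64.1 and 74.7 CPM, and Ptprc 1.95, 2.21 and 5.87 CPM.

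Ligands, receptors and STAT3 target genes were counted next in Tumor, in RNA that also held the fibroblast, myeloid and endothelial transcripts given above. Which cells their levels came from was not tested. Il6, which encodes the main ligand of gp130, was at 26.6, 28.5 and 32.0 CPM in Tumor, at 0 counts in WT 1 and WT 2, and at 0.530 CPM in WT 3. It was called higher (log2 6.15, SE 0.50, adjusted p = 4.11e-06), and of 9 ligand genes tested 2 rose and 0 fell, the other being Csf3. Of 23 receptor genes tested, 10 rose, with Il4ra, Il6st and Osmr at the smallest p. Il6st averaged 155.1 CPM in Tumor, against 59.0 in WT (log2 1.39, SE 0.16, adjusted p = 7.33e-05). Stat3 was at 275.8, 278.5 and 309.4 CPM in Tumor, above WT and below Lyso (log2 2.40 against WT, SE 0.18, adjusted p = 1.72e-06). Of 24 STAT3 target genes tested, 17 rose and 2 fell (Bcl2l1 and Birc5), led by Saa3, Stat3 and Junb.

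Of 10 JAK and STAT genes tested, 3 rose in Tumor (Stat3, Jak3 and Jak2) and 0 fell. Of the 24 interferon target genes, 12 rose and 0 fell, led by Cxcl9, Icam1 and Psmb8. Of 9 STAT5 target genes tested, 3 rose (Pim1, Igf1 and Bcl6) and 3 fell (Id1, Bcl2l1 and Ccnd2). Other inhibitors were called higher in 4 of 14 tested and lower in 0, namely Cblb, Ptpn6, Ptprc and Ptprd, of which Ptpn6 and Ptprc mark blood cells. The 7 ligase partners had 0 calls by edgeR or DESeq2, with 3 at an unadjusted p under 0.05. The other genes listed with the SOCS box genes were called higher in 4 of 21 tested (Wsb1, Asb2, Asb10 and Fem1c) and lower in 4 (Fem1a, Lrrc41, Asb8 and Asb6).

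The direct comparison of Tumor with Lyso shows where the family differs between the conditions. Of the 8 members, 3 were lower in Tumor (Socs1, Socs2 and Cish) and 0 were higher, while 14.2% of all genes tested were called higher and 10.5% lower in Tumor. Socs1 was lower by a log2 difference of -3.20 (SE 0.41, adjusted p = 0.000137), and the highest Tumor library, at 17.4 CPM, was far under the lowest Lyso library, at 83.9 CPM. Without Tumor 4 its log2 difference was -3.99. Socs2 was lower by -1.73 (SE 0.33, adjusted p = 0.00227). Cish was lower by -1.32 (SE 0.43, adjusted p = 0.0415), a call that was lost on leaving out Lyso 1, Lyso 2, Lyso 3, Tumor 1 or Tumor 3 in turn, with adjusted p from 0.0801 to 0.172, and that was stronger without Tumor 4 (log2 -2.26, adjusted p = 0.00225). Socs6 was called only with the compared groups alone in the fit (log2 0.42, adjusted p = 0.0203). Socs3 was not called (log2 -0.14, SE 0.22, adjusted p = 0.694), and the 95% interval of its difference ran from -0.60 to 0.33. Stat3 was lower in Tumor by -0.94 on the log2 scale (SE 0.16, adjusted p = 0.00122). Lyso and Tumor libraries also differ in depth and in the cells of origin listed above.

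The relapsed lines were compared with WT to see whether any of this remained after culture. Of the 8 members, 0 were called by edgeR and 0 by DESeq2, and 1 (Socs2) had an unadjusted p under 0.05, while 0.0134% of all genes tested were called higher and 0.0268% lower. With so few calls among all genes, a lack of calls here says little about the family. Socs3 was at 7.13, 10.6 and 6.52 CPM in ITF1, Rel and ITM, overlapping WT, and the interval of its log2 difference ran from -0.56 to 0.64. Socs1 was at 1.61, 2.67 and 2.09 CPM, also within the WT range (interval from -1.88 to 0.29). Socs2 was at 5.91, 9.23 and 4.91 CPM, with a log2 difference of 0.87 (SE 0.34, adjusted p = 0.380). Cish was at 2.61, 5.48 and 2.87 CPM, above every WT library, with a log2 difference of 0.99 (SE 0.50, adjusted p = 0.492). Of all genes tested, 10.6% had no overlap between the relapsed lines and WT. Socs4, Socs5, Socs6 and Socs7 overlapped WT.

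The 3 lines were not alike. Rel had the highest level of its group for 6 of the 8 members (Socs1, Socs2, Socs3, Socs6, Socs7 and Cish), while ITF1 was highest for Socs4 and Socs5 and ITM for none. Rel also had the highest Stat3 of the lines, at 96.5 CPM against 63.7 in ITF1 and 61.8 in ITM. Each line is 1 library, so these differences have no replicate check.

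Against the relapsed lines, which were sequenced about as deeply as Lyso, the same 4 members of 8 were called in Lyso. Socs1, Socs3, Socs2 and Cish rose and 0 fell, while 4.87% of genes tested were called higher and 2.81% lower. Socs1 rose 40.9-fold (log2 5.35, SE 0.44, adjusted p = 2.75e-05) and Socs3 13.1-fold (log2 3.71, SE 0.24, adjusted p = 5.64e-06). Socs2 (log2 1.07, SE 0.29, adjusted p = 0.0404) and Cish (log2 1.47, SE 0.39, adjusted p = 0.0389) were near the threshold. Both were lost on leaving out ITF1, ITM or any 1 Lyso library, with adjusted p from 0.0703 to 0.155 for Socs2 and from 0.069 to 0.135 for Cish.

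Tumor against the relapsed lines gave 3 calls of 8, with Socs3 and Socs1 higher and Socs5 lower, while 11.8% of genes tested were called higher and 7.74% lower. Socs3 was 11.9-fold higher (log2 3.58, SE 0.24, adjusted p = 5.51e-07). Socs1 was 4.46-fold higher (log2 2.16, SE 0.46, adjusted p = 0.00539), but without Tumor 4 its log2 difference was 1.36 and it was not called (adjusted p = 0.0508). Socs5 was lower by -0.59 (SE 0.16, adjusted p = 0.0223), a call lost without ITF1 (log2 -0.51, adjusted p = 0.0581), Tumor 3 (log2 -0.55, adjusted p = 0.0864) or Tumor 4 (log2 -0.52, adjusted p = 0.0982), and with only the compared groups fitted (log2 -0.60, adjusted p = 0.054). Comparisons that share a group of libraries are not independent of each other.

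The coefficient of variation within groups differed between members. In Lyso the coefficient of variation of the 4 inducible members ran from 2.79% for Socs3 to 6.25% for Socs2. In Tumor it was 73.4% for Socs1 and 80.9% for Cish but 1.48% for Socs4, 2.02% for Socs6 and 3.51% for Socs7. In Tumor 1, Tumor 3 and Tumor 4, Cish had 7, 10 and 33 counts and Socs4 had 96, 155 and 136. Counting error was not separated from these values, so they do not rank the members by how steady their expression was. Tumor 4 was highest for Socs1, Socs3, Cish and, by a small margin, Socs4.

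Across the 12 libraries, the genes whose pattern was most like each inducible member were named by the highest Pearson r of log2 CPM, as a description. For Socs1 these were Psmb10 (r = 0.98), Irf1 (r = 0.98), Gm17334, Sbno2 and Samhd1. For Socs3 they were Cpeb4 (r = 0.98), Serpina3f (r = 0.98), Gbp4, Slfn8 and Gm4951. For Socs2 they were Rab7 (r = 0.96), Fuz, Muc15, Enc1 and Dexi, and for Cish they were Abhd16a (r = 0.95), Tnfrsf14, Ptges3l, Tmem140 and Slc25a22. Libraries of a group share their condition and depth, so such values mostly restate the group means. Within groups, Irf1 had the order of Socs1 in Tumor, at 35.4, 64.5 and 172.9 CPM in Tumor 1, Tumor 3 and Tumor 4, and in WT, at 4.52, 8.01 and 17.8 CPM. In the relapsed lines it did not, with Irf1 at 17.2, 17.5 and 12.1 CPM in ITF1, Rel and ITM.

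**Figure D5:**
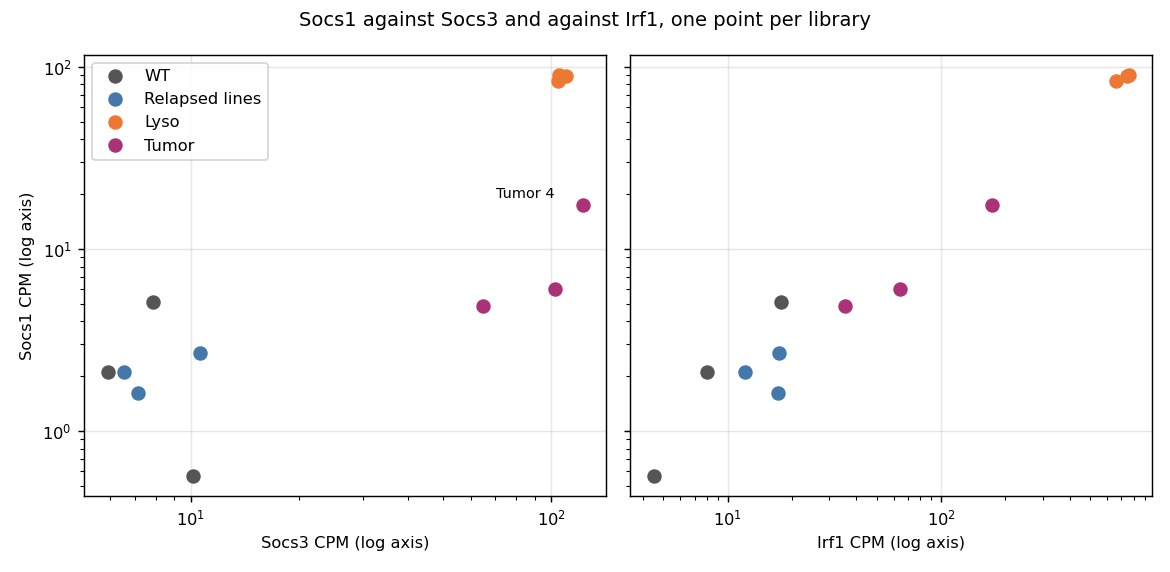
Socs1 level against Socs3 (left) and Irf1 (right), in CPM on log axes, with 1 point per library colored by group. Tumor libraries span 64.6 to 122.2 CPM of Socs3, around the 104.1 to 109.8 of Lyso, but lie far lower in Socs1 (4.87 to 17.4 against 83.9 to 90.6 CPM). In the right panel Socs1 rises with Irf1 from WT 1 to Lyso, though unevenly. ITF1 and WT 3 have similar Irf1 (17.2 and 17.8 CPM) but Socs1 at 1.61 and 5.12 CPM.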

How the data were processed

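RNA of 12 B16F10 libraries was analysed from 1 table of raw counts per gene that the authors deposited without normalization. According to the submitters' processing notes and the study's methods, reads were trimmed with fastp 0.19.6, aligned to GRCm38 with STAR 2.7.1a and analysed with DESeq2 1.24.0. The strand setting is not given in the sources used here. The 4 rows that name no gene were left out; reads on no annotated gene were 43.5% to 44.8% of a library. No column was left unmapped. The labels' protocol numbers the sorted tumors differently from the sample titles, and the titles were used.

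Counts were tested with edgeR 4.0.16 in R 4.3.3 (TMM, filterByExpr by group, 1 fit of all 12 libraries, quasi-likelihood test, Benjamini-Hochberg over 14924 genes, adjusted p under 0.05). The SE is the log2 fold change over the root of F, and 95% intervals use the fit's degrees of freedom. Positions and exon lengths came from GENCODE M21. Values without another note are mean ± SD, n = 3. Patterns alike were ranked on log2 CPM with a prior count of 2. The family members and all gene lists were chosen with earlier results of these data known. Named genes are all members, up to 3 called genes per list, direction and comparison with WT by smallest p, and Stat3, Jak2, Il6st and the ligase partners. A few genes of the rule are not reported here. Genes named beyond this rule were chosen after their values were seen. The scripts were tested on simulated data. Alternatives were DESeq2 1.42.0, RLE or library size scaling, no filter, at least 10 counts in every library, only the compared groups, WT 3 alone or WT 1 and WT 2 alone as controls, a log2 fold change over 1, the replicate block, and leaving out each library. No 2 libraries of a group agreed within sampling noise, though by unequal margins. The chi-square of their counts per degree of freedom ran from 1.55 for Lyso 2 against Lyso 3 to 67.2 for ITF1 against ITM.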

Additional observations from a re-analysis of the deposited data

Results flagged for a closer look

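Against the same WT libraries, Lyso and Tumor differed from each other in 3 members by the direct test in edgeR's fit. The log2 difference, Tumor minus Lyso, was -3.20 for Socs1 (adjusted p = 0.000137), -1.73 for Socs2 (adjusted p = 0.00227) and -1.32 for Cish (adjusted p = 0.0415). In each case all 3 Tumor libraries were under all 3 Lyso libraries, and 54.9% of all genes tested did not overlap between these groups. T cell transcripts in Lyso, stromal transcripts in Tumor and the lower depth of Tumor accompany these differences, and their part was not tested.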

How the results depend on the processing

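Socs3 kept its calls and directions in Lyso and Tumor, against WT and against the relapsed lines, in all alternatives that could be run. The number of members called differed by over 1.5 times from the reported one as follows. With at least 10 counts in every library, where Socs1, Socs2 and Cish could not be tested because of low counts, it was 1 for Lyso against WT, 1 for Lyso against the relapsed lines and 0 for Tumor against Lyso. For Tumor against WT it was 1 with a log2 fold change over 1 and 1 with the replicate block. The replicate block gave 4 for Lyso against WT and 3 for Tumor against Lyso, changed no call other than that of Socs5 (log2 -0.63, adjusted p = 0.102), and rests on a shared number only, since same-numbered libraries deviated with correlations of -0.01 to 0.06. Tumor 4 shares its number with no other library and so has no part in that fit. Leaving out 1 library at a time gave 3 to 4 for Lyso against WT, 1 to 3 for Tumor against WT, 0 to 0 for the relapsed lines against WT, 2 to 3 for Tumor against Lyso, 2 to 4 for Lyso against the relapsed lines and 1 to 3 for Tumor against the relapsed lines. Cish in Lyso against WT was not called with WT 3 as the only control (adjusted p = 0.109).

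Signs turned only for differences that were not called. For Lyso against WT, the log2 difference turned to -0.028 for Socs4 and -0.018 for Socs7 with library size scaling, and for Socs6 to 0.017 with at least 10 counts and to 0.0056 with the replicate block. Leaving out 1 library at a time, the sign also turned within these ranges: for Lyso against WT, Socs4 -0.074 to 0.35, Socs6 -0.10 to 0.11 and Socs7 -0.024 to 0.20. For Tumor against WT, they were -0.25 to 0.17 for Socs4 and -0.17 to 0.053 for Socs7. For the relapsed lines against WT, they were -1.04 to 0.56 for Socs1, -0.20 to 0.18 for Socs3 and -0.028 to 0.39 for Socs4. They were -0.34 to 0.073 for Socs3 in Tumor against Lyso and -0.18 to 0.11 for Socs4 in Lyso against the relapsed lines. In Tumor against the relapsed lines they were -0.079 to 0.28 for Socs6 and -0.79 to 0.55 for Cish. Depth limits Cish, Socs1 and Socs2 in WT 1 and WT 2, where they had 1 to 12 counts.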
